A study of Mus musculus with 2 samples.

Results

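Proliferating cells copy their DNA in S phase and divide it in mitosis and cytokinesis, and the genes that carry out these steps were followed in the heart of the mouse embryo. The set holds 53 genes of the 55536 in the M21 gene table, each found by matching its identifier to its symbol in that annotation, and all 53 were matched. They were taken as 17 replication genes, 10 genes of E2F and related transcription factors, 18 mitotic genes and 8 cytokinesis genes. The rule lists them by function and uses no threshold on a measured value.

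The study sequenced polyA-selected RNA of whole hearts at embryonic day 12.5 in 2 libraries, which are biological replicates 1 and 2 of a single group. Per the labels, the hearts came from strain B6NCrl embryos of both sexes pooled together, with no treatment or altered allele given, and each library started from 10 ng of RNA and was cut by Nextera tagmentation. ERCC spike-ins, synthetic RNAs, had been added at a single-cell dose multiplied by 1000. The labels list separate biosamples under a shared donor identifier, and each test here compares these 2 libraries alone, on counting error only.

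In a dividing cell, cyclin E with Cdk2 opens S phase, the Mcm2-7 ring is loaded at origins by Cdc6 and Cdt1 and unwinds DNA, and Pcna holds the polymerases on the template. E2F factors, held by pocket proteins of the Rb family until the cell commits to divide, are known to switch on replication genes, while Mybl2 and Foxm1 act with the MuvB complex on genes of G2 and mitosis. Cdk1 with cyclins A and B drives mitosis, and the chromosomal passenger complex and the central spindle then guide the furrow that separates the daughter cells. Fetal heart muscle cells still divide at this stage, as do other cells of the organ.

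Counts on genes came to 34248993 in replicate 1 and 31394912 in replicate 2, and the 53 genes took 0.712% and 0.719% of them. Their expected counts, which are estimated reads per gene, ran from 634 (E2f2, replicate 2) to 13832 (Top2a, replicate 1). The heart label was checked against 8 cardiomyocyte markers, all detected, with summed levels of 25496 and 25369 TPM. Markers of other cells in or near the organ were also present. Summed levels were 32535 and 29189 TPM for 8 erythroid genes, 386 and 403 for 8 endothelial and endocardial genes, and 242 and 239 for 6 epicardial genes. They were 1235 and 1202 TPM for 6 genes of cushion mesenchyme, 114 and 118 for 6 macrophage genes, and 250 and 68.8 for 8 hepatocyte genes. None of these lists had a gene at 0 in a library, although the hepatocyte gene Fgb was at 1.75 and 0.30 TPM.

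The promoters of the replication and the mitotic genes are shown first, because the short sequence words they hold differed between the classes. RefSeq promoters on GRCm38.p6, from 250 bases before to 50 after the transcription start, were matched by symbol for 43 of 53 members, with 48 promoters in all. Those of Ccne2, Gmnn, Mcm4, E2f4, E2f5, Foxm1, Ccna2, Tpx2, Aurkb and Kif20a were not matched. The E2F words searched were TTTCCCGC, TTTGGCGC, TTTCGCGC and TTTGCCGC. The words of the cell cycle genes homology region (CHR), the element bound by the MuvB complex, were TTTGAA and TTCGAA, and CCAAT is the word bound by the factor NF-Y. Both strands were read, matches of different words were allowed to overlap, and a match describes letters, not a bound site.

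E2F words stood in the promoters of 7 of 14 replication genes, namely Cdc6, Cdk2, Cdt1, Mcm3, Mcm5, Mcm6 and Mcm7. They were found for 3 of 7 genes of the E2F class (E2f2, E2f3 and E2f7), 1 of 16 mitotic genes (Cdk1) and 0 of 6 cytokinesis genes. Of all 32851 RefSeq promoters of this length 2.26% held such a word, as did 4.89% of 9760 protein-coding genes detected in these hearts. The share among replication genes was above both, and no test was made because the genes were listed by function.

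The 4 windows below show the E2F words of replication genes in capitals, on the strand of the gene, where a match on the opposite strand reads as its reverse complement. They are Mcm6 (chr1:128359706-128359835, minus strand), Mcm5 (chr8:75109339-75109388, plus strand), Cdc6 (chr11:98907991-98908040, plus strand) and Cdk2 (chr10:128705162-128705211, minus strand). In Mcm6 the capitals also mark CCAAT words. In Mcm5 and Mcm6 a word on each strand overlapped, so that the capitals run on without a break, and Mcm6 held a further E2F word with its first base at position -47 from the start.
Mcm6: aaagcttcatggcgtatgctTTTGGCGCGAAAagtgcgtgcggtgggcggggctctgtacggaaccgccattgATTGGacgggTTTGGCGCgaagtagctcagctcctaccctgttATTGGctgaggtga
Mcm5: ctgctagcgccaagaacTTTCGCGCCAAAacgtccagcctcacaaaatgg
Cdc6: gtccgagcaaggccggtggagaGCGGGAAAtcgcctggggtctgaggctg
Cdk2: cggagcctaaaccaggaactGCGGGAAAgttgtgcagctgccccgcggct

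CHR words showed the opposite arrangement. Within 100 bases of the start they were found in 13 of 16 mitotic and 5 of 6 cytokinesis genes, against 3 of 7 of the E2F class and 1 of 14 replication genes (Mcm2). The same words lay that close to the start in 8.79% of all promoters and in 6.75% of detected protein-coding genes. Over the whole window the counts were 13 of 16, 5 of 6, 3 of 7 and 2 of 14. The share was 19.2% of all promoters and 16.3% of detected protein-coding genes. Each mitotic or cytokinesis gene with a CHR word thus had one within 100 bases of the start. The mitotic genes with no CHR word in the window were Ccnb1, Cenpe and Mad2l1, and among cytokinesis genes only Birc5 of the 6 matched had none.

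CCAAT was common in every class, in 37.4% of all promoters and in 43.3% of detected protein-coding genes. It was found in 15 of 16 mitotic, 4 of 6 cytokinesis, 4 of 7 E2F class and 9 of 14 replication genes. A CHR word together with CCAAT was held by 13 of 16 mitotic and 4 of 6 cytokinesis genes. Both were held by 3 of 7 genes of the E2F class and 2 of 14 replication genes. The share with both was 7.52% of all promoters and 6.99% of detected protein-coding genes. Mad2l1 was the mitotic gene with neither word.

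The next windows were chosen because they show CHR and CCAAT words (capitals) near the start of mitotic and cytokinesis genes with different roles, from a cyclin to the central spindle. They are Ccnb2 (chr9:70421530-70421654, minus strand), Cdc20 (chr4:118437334-118437413, minus strand), Cenpf (chr1:189688067-189688166, minus strand), Top2a (chr11:99024190-99024419, minus strand), Kif23 (chr9:61946780-61946839, minus strand), Prc1 (chr7:80294401-80294465, plus strand) and Cdca8 (chr4:124936890-124937012, minus strand). In Ccnb2 the 3 CCAAT words began 33 bases apart and the CHR word began at position 5 of the transcript. Top2a held 4 CHR and 6 CCAAT words in the window shown. In Cdca8 a CHR word and a reversed CCAAT word overlapped.
Ccnb2: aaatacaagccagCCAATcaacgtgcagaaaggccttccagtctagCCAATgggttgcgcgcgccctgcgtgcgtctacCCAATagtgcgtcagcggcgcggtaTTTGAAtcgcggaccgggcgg
Cdc20: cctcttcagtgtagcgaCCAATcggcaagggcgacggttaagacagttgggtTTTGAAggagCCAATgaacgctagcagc
Cenpf: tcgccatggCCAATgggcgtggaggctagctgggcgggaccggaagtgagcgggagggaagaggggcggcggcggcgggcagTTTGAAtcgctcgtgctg
Top2a: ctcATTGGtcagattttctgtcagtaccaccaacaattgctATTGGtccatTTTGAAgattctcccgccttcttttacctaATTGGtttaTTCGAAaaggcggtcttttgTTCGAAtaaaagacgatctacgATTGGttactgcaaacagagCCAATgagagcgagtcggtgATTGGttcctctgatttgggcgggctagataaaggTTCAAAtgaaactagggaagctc
Kif23: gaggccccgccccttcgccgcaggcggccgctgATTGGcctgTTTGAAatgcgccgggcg
Prc1: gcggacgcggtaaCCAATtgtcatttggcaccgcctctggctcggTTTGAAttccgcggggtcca
Cdca8: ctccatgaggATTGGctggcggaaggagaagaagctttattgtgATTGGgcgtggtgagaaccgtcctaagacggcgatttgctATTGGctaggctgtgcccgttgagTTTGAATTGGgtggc

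Promoters with both an E2F and a CHR word were found for 3 of the 43 matched members, Mcm7, E2f3 and Cdk1. The share with both words was 0.317% of all promoters and 0.697% of detected protein-coding genes. The windows of Cdk1 (chr10:69352913-69353052, minus strand) and E2f3 (chr13:29986054-29986103, minus strand) are given because each joins the word typical of replication genes to that typical of mitotic genes. In Cdk1 the E2F word began at position -131 from the start and the CHR words at -71 and -15. In the E2f3 promoter the E2F and CHR words began at -11 and -23.
Cdk1: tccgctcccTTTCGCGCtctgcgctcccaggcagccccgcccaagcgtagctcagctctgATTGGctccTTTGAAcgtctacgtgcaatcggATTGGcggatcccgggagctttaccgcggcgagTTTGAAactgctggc
E2f3: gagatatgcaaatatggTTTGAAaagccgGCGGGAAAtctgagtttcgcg

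**Figure D1:**
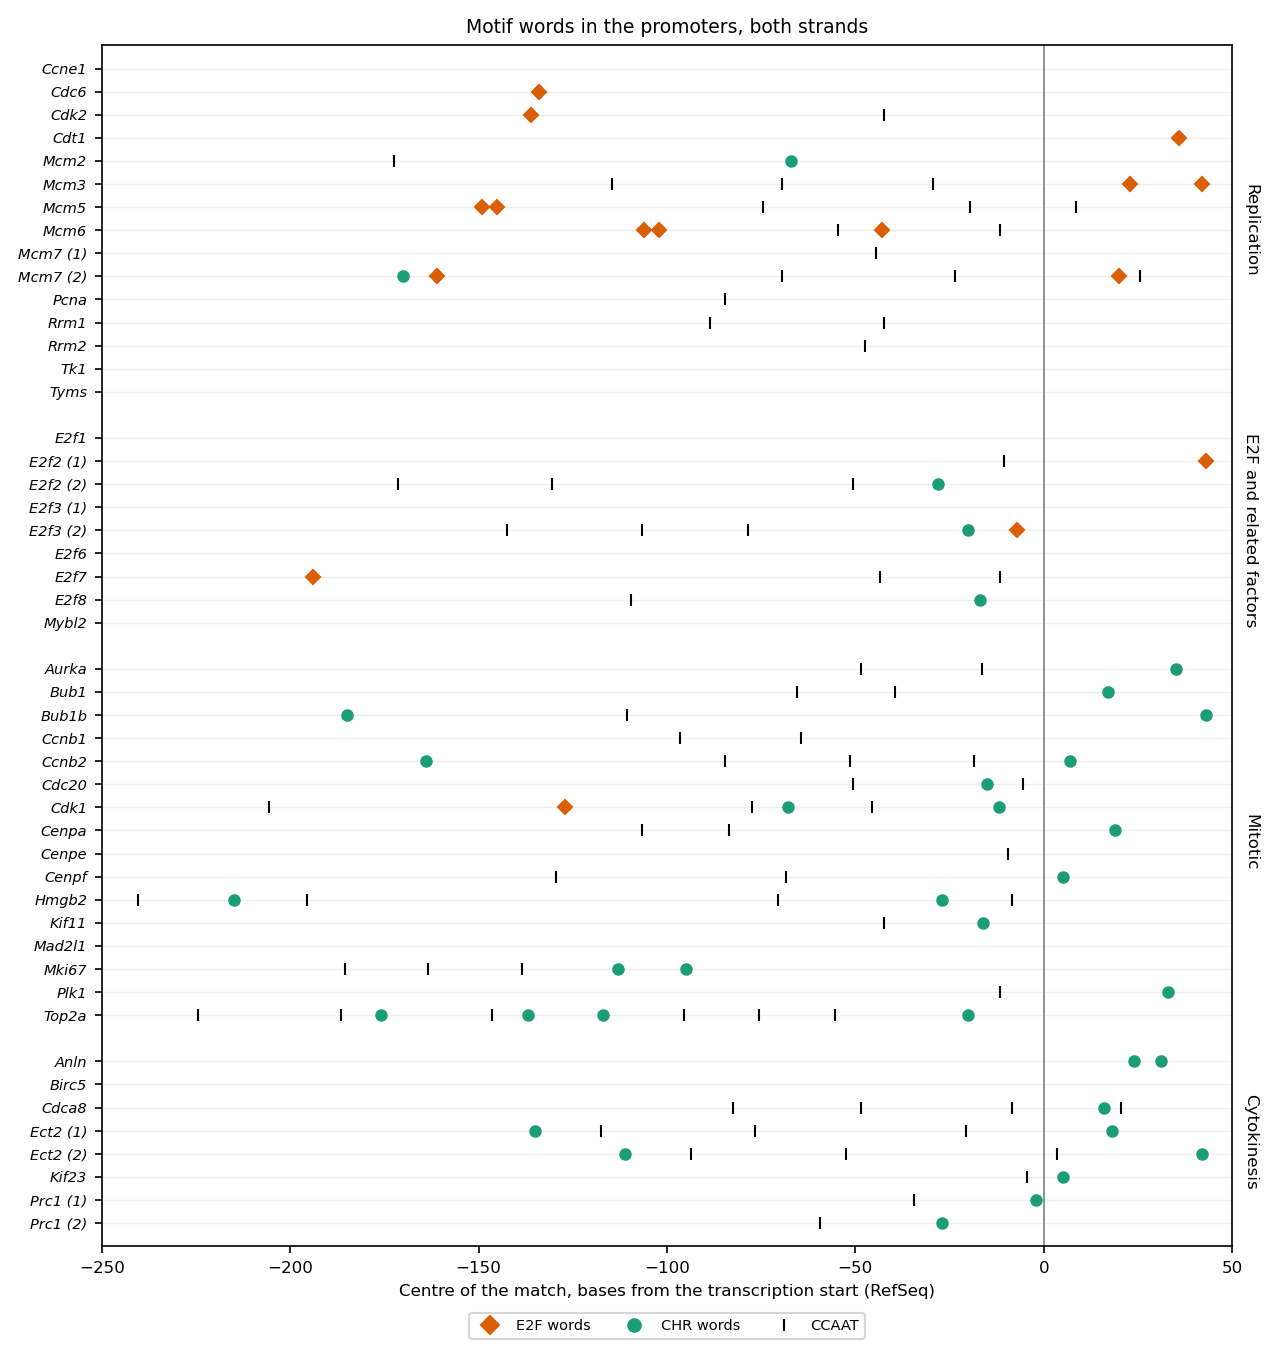
Position of each E2F word (diamonds), CHR word (circles) and CCAAT word (ticks) in 48 RefSeq promoters of 43 members, in bases from the transcription start; a number in parentheses marks genes with more than 1 promoter. E2F words lie mostly in the replication rows at scattered distances, and CHR words cluster within 100 bases of the start in the mitotic and cytokinesis rows.

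All 53 genes were detected, at a level of at least 1 TPM in both libraries (TPM is transcript abundance per length, scaled to a fixed total), against 56.6% of 22028 protein-coding genes. All 53 also reached 5 TPM. In whole tissue, fewer cells of a type and less RNA per cell cannot be told apart. The median detected protein-coding gene stood at 19.1 TPM, and 46 members were above it, including all 17 replication genes, 17 of 18 mitotic genes and all 8 cytokinesis genes. Of the E2F class 4 of 10 were above it.

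Class medians were close to each other except for the transcription factors. Replication genes had a median of 89.0 TPM in replicate 1 and 86.3 in replicate 2, mitotic genes 80.3 and 85.0, and cytokinesis genes 69.9 and 76.6. The E2F class had medians of 17.6 and 18.3 TPM. Over both libraries these were 87.6 ± 1.93, 82.6 ± 3.31, 73.3 ± 4.74 and 17.9 ± 0.502 TPM (SD, n = 2). Within a class the levels spread by 10.3-fold for replication, 15.4-fold for mitotic, 7.21-fold for E2F and 3.92-fold for cytokinesis genes, comparing the highest mean with the lowest. Of 52 neighbouring pairs in the order of mean level, 26 overlapped between libraries, so the order is loose in its middle.

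**Figure D2:**
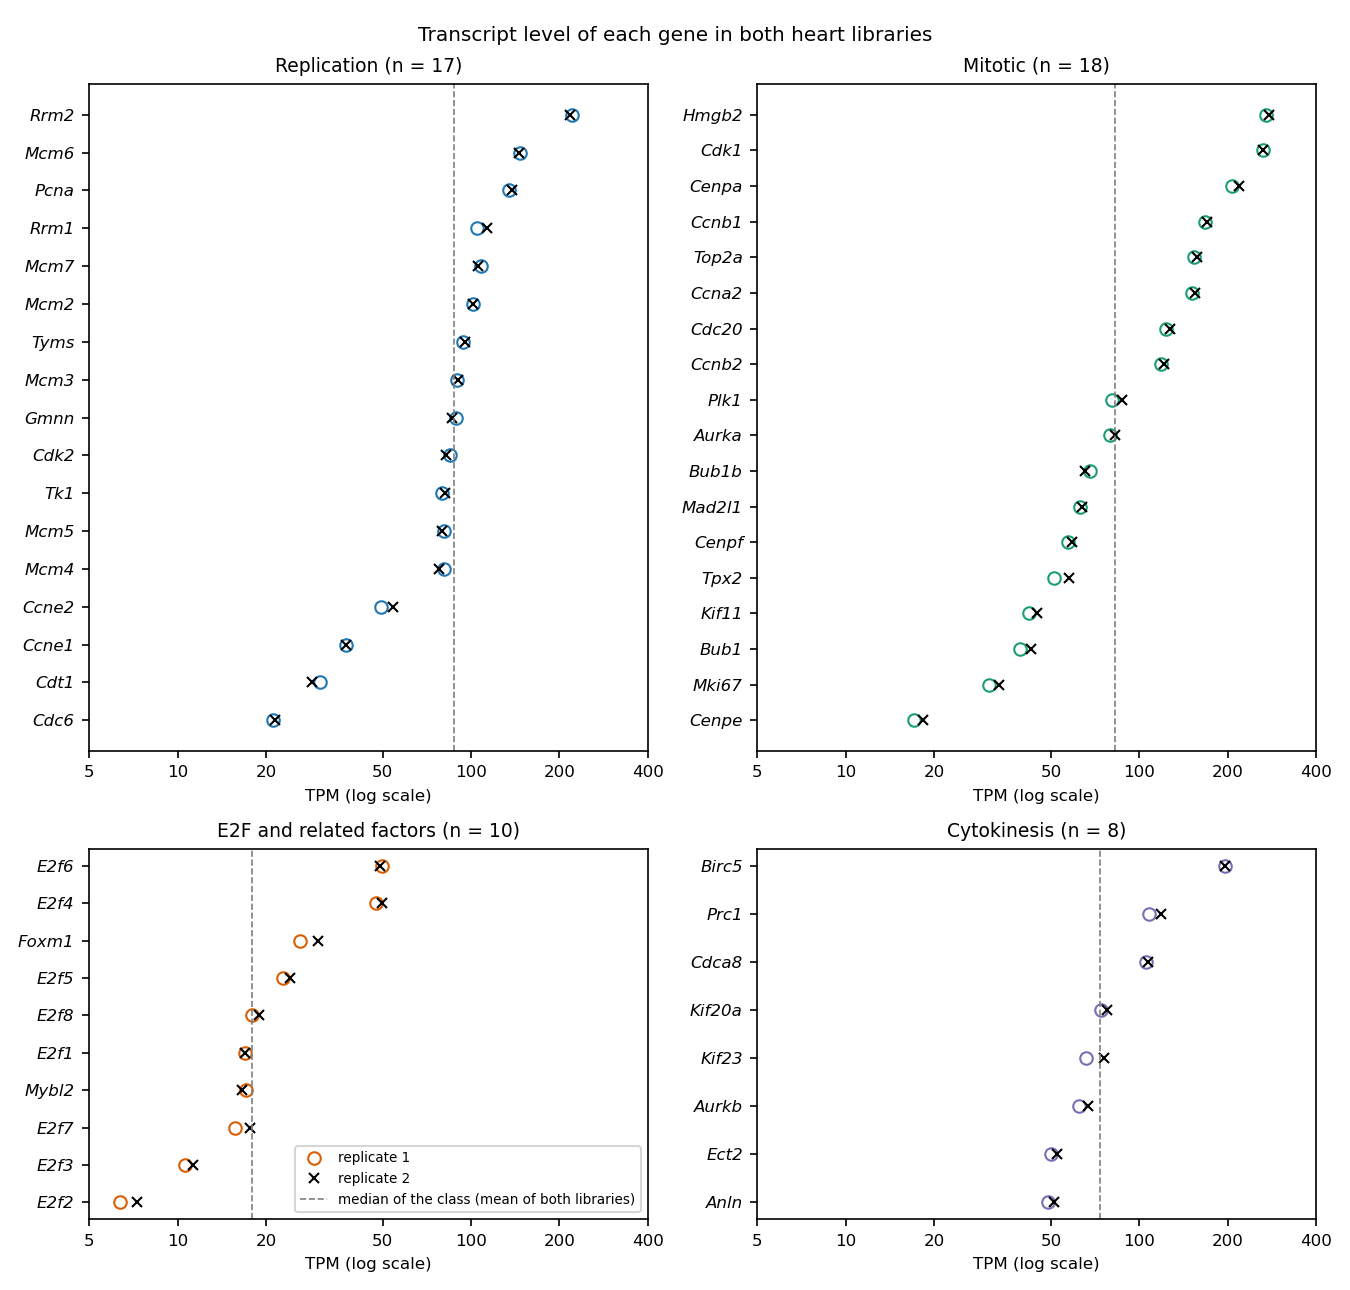
Level of each gene in TPM (log axis) in replicate 1 (circles) and replicate 2 (crosses), in 4 panels by class, with the dashed line at the class median. Every gene lies above 5 TPM, the 2 libraries nearly coincide for most genes, and the E2F panel sits lowest with E2f2 at 6.38 and 7.28 TPM.

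The 4 highest replication genes were Rrm2, Mcm6, Pcna and Rrm1. Rrm2 (ENSMUSG00000020649.11, chr12:24708241-24714146 on mm10), the small subunit of ribonucleotide reductase whose level rises in S phase, was at 220 TPM in replicate 1 and 218 in replicate 2. Rrm1, the large subunit, was at 105 and 113 TPM. The libraries did not overlap between these genes, and Rrm2 exceeded Rrm1 by 1.00 ± 0.08 on the log2 scale (SD, n = 2, with 0.5 added to each TPM here and in every ratio of 2 genes). Tyms, thymidylate synthase, was at 93.9 and 95.4 TPM and Tk1, the salvage kinase for thymidine, at 79.5 and 81.6 TPM, with no overlap. The Tyms level rests mainly on transcript models other than complete coding ones, described with the isoforms.

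The 6 helicase subunits, which form a ring with a single copy of each, lay within 1.84-fold of each other on gene TPM. Mcm6 (ENSMUSG00000026355.11, chr1:128331590-128359664) was the highest at 147 and 146 TPM. Mcm7 followed at 107 ± 1.47 and Mcm2 at 102 ± 0.0990 TPM (SD, n = 2). Mcm5 was at 80.3 ± 0.827 and Mcm4 at 79.3 ± 2.03 TPM, and these overlapped between libraries. Mcm3 lay above them at 89.5 and 90.4 TPM, of which 23.3% and 28.8% was on retained-intron models. On complete coding models alone Mcm3 was below them, at 68.6 and 64.4 TPM. Mcm5 was then at 78.8 and 79.0 TPM and Mcm4 at 79.7 and 77.25 TPM. Pcna, the sliding clamp, was at 135 and 138 TPM.

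The licensing factors were the lowest of the class. Cdc6 was at 21.1 TPM in replicate 1 and 21.5 in replicate 2, and Cdt1 at 30.5 and 28.7. Gmnn encodes geminin, the inhibitor that binds Cdt1, and was at 89.0 and 86.3 TPM. Cdt1 was therefore below its inhibitor in both libraries, by a log2 ratio of -1.55 ± 0.03 (SD, n = 2). Of the cyclins E, Ccne2 was at 51.6 ± 3.44 and Ccne1 at 37.5 ± 0.0636 TPM, while their kinase Cdk2 was at 83.6 ± 1.99 TPM. The log2 ratio of Ccne1 to Ccne2 was -0.45 ± 0.10, and the 2 did not overlap.

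In the E2F class, the repressors E2f4, E2f5 and E2f6 were above the activators E2f1, E2f2 and E2f3 in both libraries. E2f6 (ENSMUSG00000057469.8, chr12:16810963-16839742), a repressor that does not bind pocket proteins, was at 49.6 TPM in replicate 1 and 48.8 in replicate 2. E2f4, the main partner of the pocket proteins p107 and p130, was at 47.6 and 49.9 TPM and overlapped E2f6. On complete coding models alone the overlap was gone, with E2f6 at 24.7 and 22.0 TPM and E2f4 at 44.8 TPM in both libraries. E2f5, the close relative of E2f4, was at 22.8 and 24.1 TPM, with a log2 ratio of E2f4 to E2f5 of 1.04 ± 0.01 (SD, n = 2).

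The activators E2f1, E2f3 and E2f2 were at 17.0 ± 0.0354, 10.9 ± 0.481 and 6.83 ± 0.636 TPM, in an order without overlap. E2f2 (ENSMUSG00000018983.9, chr4:136172394-136196057) was the lowest member at 6.38 TPM in replicate 1 and 7.28 in replicate 2, and E2f3 was the next lowest at 10.6 and 11.3 TPM. E2f1 exceeded E2f2 by 1.26 ± 0.13 and E2f3 by 0.61 ± 0.06 on the log2 scale. E2f4 exceeded E2f1 by 2.82-fold on the mean of the log2 ratios, which were 1.46 and 1.53 in the libraries.

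The atypical factors E2f7 and E2f8, which repress E2F targets without a DP partner, were at 15.7 and 17.6 TPM and at 18.5 ± 0.672 TPM. E2f7 was lower within each library, by a log2 ratio of -0.15 ± 0.06. Foxm1, the forkhead factor of G2 and mitosis, was at 26.1 and 30.1 TPM, and Mybl2, its earlier acting partner on MuvB, at 16.9 ± 0.410 TPM. Their log2 ratio, Mybl2 over Foxm1, was -0.72 ± 0.18.

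Mitotic genes held 3 of the 5 highest means among the members. Hmgb2 (ENSMUSG00000054717.7, chr8:57511907-57515999), a chromatin protein of dividing cells, was at 271 TPM in replicate 1 and 276 in replicate 2. Cdk1 (ENSMUSG00000019942.13, chr10:69335146-69352938) was at 264 TPM in both libraries, below Hmgb2 without overlap on M21 gene TPM. On the other annotation, M4, the order was reversed, with Cdk1 at 274 TPM in both libraries and Hmgb2 at 210 and 217 TPM. It was also reversed on complete coding models, with Cdk1 at 172 and 178 TPM and Hmgb2 at 111 and 115 TPM. Cenpa (ENSMUSG00000029177.9, chr5:30666777-30674830), the histone H3 variant that marks centromeres, was at 207 and 219 TPM.

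Ccnb1, the main mitotic cyclin, was at 167 and 169 TPM. Ccnb2 was at 119 and 121 TPM, and Ccna2, which serves S phase and early mitosis, at 153 ± 2.31 TPM (SD, n = 2). Ccnb1 exceeded Ccnb2 in both libraries by 0.49 ± 0.01 on the log2 scale, and Cdk1 exceeded Cdk2 by 1.65 ± 0.03. Plk1 and Aurka, kinases of mitotic entry and of the spindle poles, were at 84.0 ± 4.45 and 81.3 ± 2.17 TPM and overlapped.

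The checkpoint and kinetochore genes spread widely. Cdc20, the activator of the anaphase-promoting complex, was at 125 ± 2.70 TPM and Mad2l1, which restrains it, at 63.1 ± 0.813 TPM, a log2 ratio of -0.98 ± 0.01 for Mad2l1 over Cdc20. Bub1b was at 66.8 ± 1.77 and Bub1 at 40.9 ± 2.53 TPM, without overlap. Cenpf (ENSMUSG00000026605.14, chr1:189640606-189688086), a large kinetochore protein, was at 57.1 and 58.9 TPM. Cenpe, the kinetochore motor, was at 17.1 and 18.4 TPM and was the lowest mitotic gene. Their log2 ratio of 1.68 ± 0.04 was the largest mean of the 18 pairs of related genes examined on M21, of which 11 had the gene written first above the other in both libraries. Cdk1 over Cdk2 was close to it, and was the larger ratio in replicate 2 (1.68 against 1.65) and on M4 (1.76 against 1.69). The Cenpf ratio turned to -0.72 when complete coding models alone were counted.

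Spindle and chromosome genes completed the class. The spindle factors Tpx2, which activates Aurka, and Kif11, the motor that separates the poles, were at 51.4 and 57.7 TPM and at 43.4 ± 2.06 TPM. Top2a (ENSMUSG00000020914.17, chr11:98992943-99024189), the topoisomerase that untangles sister DNA, was at 155 ± 2.23 TPM. Mki67 (ENSMUSG00000031004.8, chr7:135689784-135716361), the coat protein of mitotic chromosomes used as the Ki-67 marker, was at 30.7 and 33.1 TPM. Mki67 was thus well below Top2a per length, although its long message drew 7187 and 7271 counts.

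Of the cytokinesis genes, Birc5 (ENSMUSG00000017716.15, chr11:117849251-117855743), which encodes survivin of the passenger complex, was the highest at 196 TPM in both libraries. Cdca8, which encodes borealin of that complex, was at 105 and 107 TPM, and the kinase subunit Aurkb at 64.5 ± 3.35 TPM. Birc5 exceeded Aurkb by 1.59 ± 0.07 on the log2 scale, and Aurka exceeded Aurkb by 0.33 ± 0.04.

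Prc1, the microtubule bundler of the central spindle, was at 108 and 118 TPM. The kinesins Kif20a and Kif23 were at 74.2 and 77.5 TPM and at 65.7 and 75.8 TPM, and they overlapped. Their log2 ratio, Kif23 over Kif20a, was the closest to 0 of the 18 pairs on M21, at -0.10 ± 0.10. It was -0.93 on M4, -0.97 on protein-coding models and -1.50 on complete coding models, and with posterior mean TPM the ratio of E2f7 to E2f8 was closer to 0 (-0.06 against -0.09). Ect2, the exchange factor that activates RhoA at the furrow, was at 50.1 and 52.6 TPM, and Anln, a furrow scaffold, at 48.8 and 51.1 TPM, with overlap.

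The wider machinery around these genes was detected too. All 40 further replication genes, all 10 Rb, DREAM and DP partners of E2F and all 50 further mitotic genes reached 1 TPM in both libraries. Of 18 further passenger, midzone and cytokinesis genes 15 were found by symbol and all of these were detected, while Septin2, Septin7 and Septin9 were not matched under those names. Median levels were 40.4 ± 1.88, 15.9 ± 0.863, 30.0 ± 0.0212 and 32.8 ± 1.75 TPM in that order (SD, n = 2). The highest genes were Rfc2 (156 and 155 TPM), a clamp loader subunit, Rbbp4 (268 and 266), a histone chaperone shared by several complexes, Ube2c (359 and 354), the ubiquitin enzyme of the anaphase-promoting complex, and Rhoa (288 and 271). The lowest were Orc1 (5.62 and 4.85), Lin54 (11.4 and 11.2), which is the MuvB subunit that reads the CHR, Kif18b (5.02 and 6.66) and Kif14 (5.32 and 4.41).

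The libraries were compared gene by gene with an exact conditional binomial test on counts, two-sided, adjusted by the Benjamini-Hochberg method over all 17970 genes tested, which include all 53 members. It covers counting error only and compares 2 libraries, not conditions. Of the 53 members 0 were called at an adjusted p under 0.05 with a 2-fold ratio, where 1.57% of all tested genes were, and 17 had an unadjusted p under 0.05, as did 22.5% of all tested genes and 26.8% of those with counts in the members' range. Without the fold threshold 6 passed, where 10.0% of all genes and 12.4% of 7838 genes with counts in the members' range did. No member differed by more than 0.20 on the log2 scale. In all 2 members passed as higher in replicate 2 and 4 as lower, where 4.28% and 5.73% of all genes did. Passing genes were 3 of 17 replication, 0 of 10 E2F, 2 of 18 mitotic and 1 of 8 cytokinesis genes.

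Kif23 drew 2847 counts in replicate 1 and 3021 in replicate 2, which after scaling for library size was higher in replicate 2 by 0.20 on the log2 scale (95% interval 0.12 to 0.27, adjusted p = 9.1e-06 by the exact test). Mki67 was higher in replicate 2 by 0.13 (0.08 to 0.18, adjusted p = 4.33e-06 by the exact test). Both were also higher per length, so counts and TPM put the libraries in the same order.

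Lower in replicate 2 were Top2a, Mcm3, Mcm4 and Rrm2. Top2a had 13832 and 12100 counts and a log2 ratio of -0.08 (-0.11 to -0.04, adjusted p = 0.000406 by the exact test). Mcm3 had a ratio of -0.10 (adjusted p = 0.017), Mcm4 of -0.08 (0.0279) and Rrm2 of -0.06 (0.0449). In gene TPM, Top2a stood at 154 and 157 and Mcm3 at 89.5 and 90.4, which reverses the order of the libraries. On complete coding models alone Top2a was at 102 and 97.4 TPM and Mcm3 at 68.6 and 64.4. The direction for these 2 genes thus held on counts and on complete coding models, and not on gene TPM. For Mcm4 and Rrm2 counts and gene TPM both gave the lower value to replicate 2.

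By class, 13 of 17 replication genes had a log2 count ratio under 0 and 12 of 18 mitotic and 6 of 8 cytokinesis genes had one over 0, where 47.7% of all tested genes, and 45.7% of those in the members' count range, were over 0. The medians were -0.04, 0.01 and 0.04 for these classes, 0.00 for the E2F class and -0.01 for all genes. All 6 helicase subunits had ratios under 0, from -0.10 to -0.03, and all 5 genes of the central spindle and furrow had ratios over 0, from 0.03 to 0.20. Most of these genes did not pass singly, and the classes share their 2 libraries, so the counts describe these libraries. Hepatocyte markers moved with the libraries (8 of 8 called lower in replicate 2), as did erythroid genes (6 of 8 passed as lower, 0 called), and their part in the ratios was not tested. Among the further genes of the wider machinery 0 were called, and 5 passed as higher and 3 as lower in replicate 2.

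**Figure D3:**
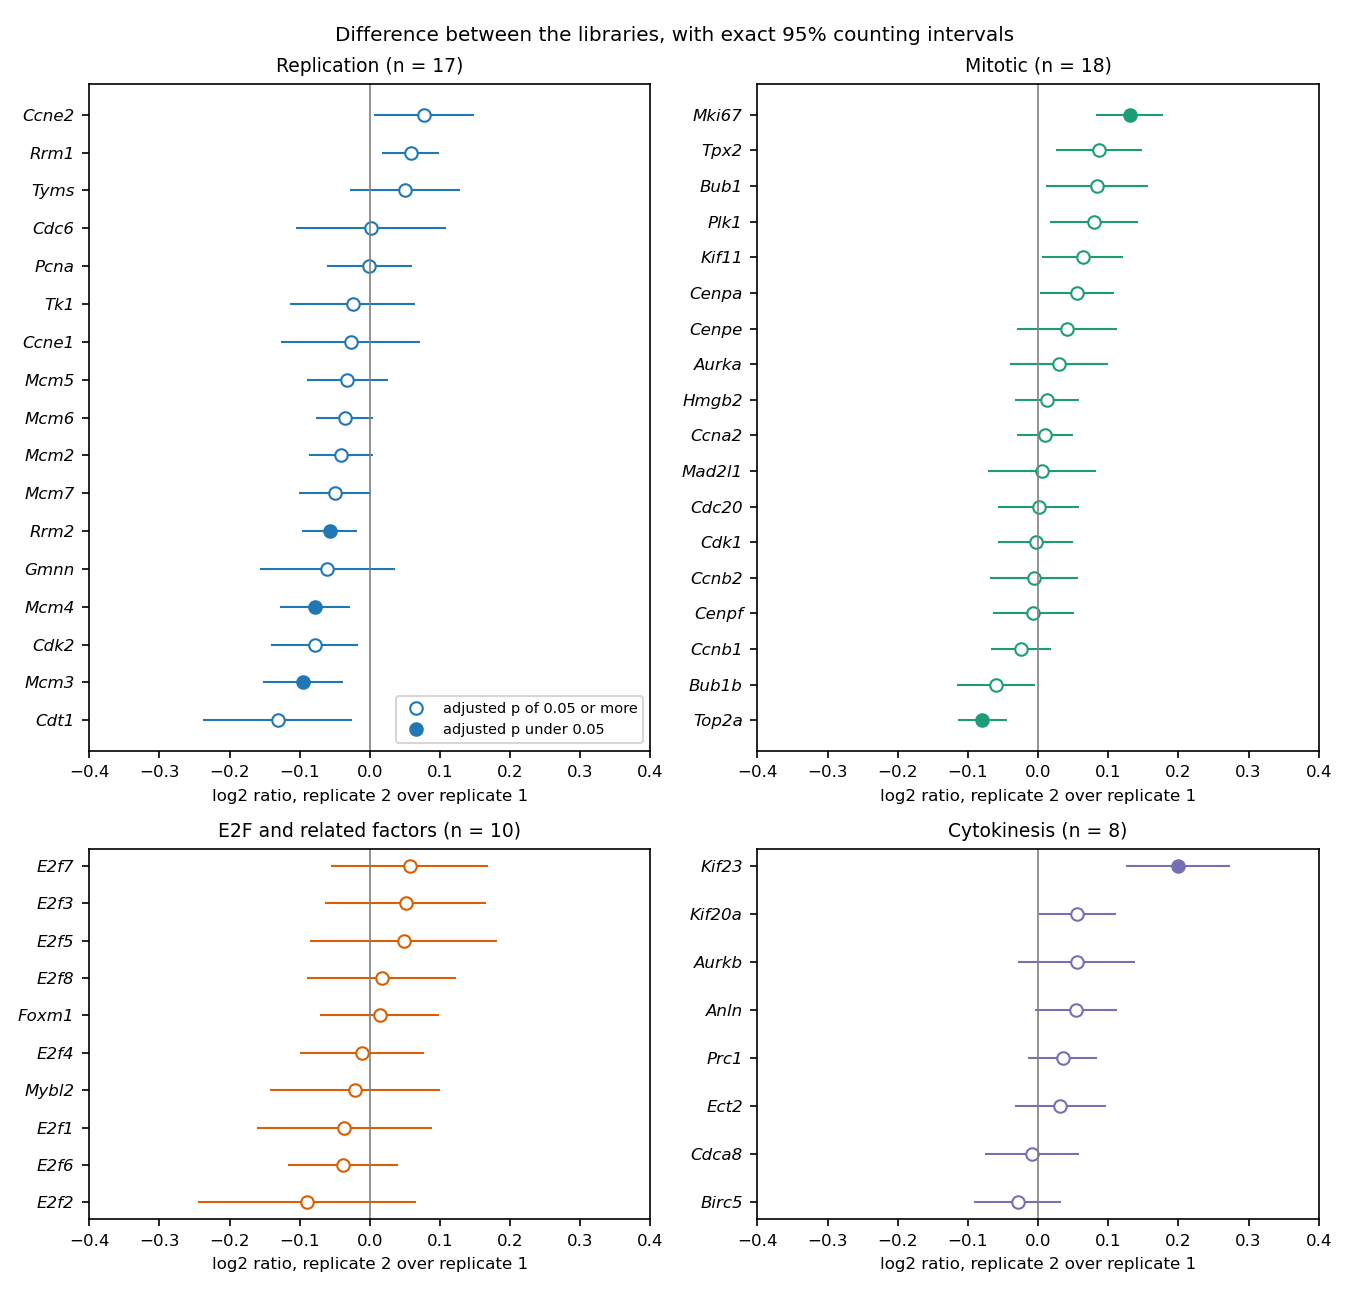
Log2 ratio of scaled counts, replicate 2 over replicate 1, for each gene with its exact 95% counting interval, by class; filled points passed an adjusted p of 0.05. All ratios lie between -0.13 and 0.20, with 6 filled points, and the replication panel leans to the left of 0.

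By TPM, most members were carried mainly by a single protein-coding message. A gene was counted as split where its leading transcript model held under 60% of its TPM in either library, and this was so for 11 of 53 members, where it was so for 40.3% of 12468 detected protein-coding genes and for 44.3% of those with several models. The split genes were Tyms and Tk1 in replication, E2f6 and E2f7 in the E2F class, Cenpf, Hmgb2 and Tpx2 in mitosis, and Kif23, Prc1, Ect2 and Kif20a in cytokinesis. By share of counts in place of TPM, 10 of 53 members were split. Protein-coding models held a median of 93.6% of TPM over the members and at least 90% in 35 of them.

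Levels of 6 members rested mainly on models other than complete protein-coding ones, since models annotated as coding and as complete held under 50% of their TPM in both libraries (Tyms, Cenpf, Cenpa, Kif23, Hmgb2 and E2f6). The same held for 13.5% of detected protein-coding genes. TPM divides counts by model length, so few reads on a short model can give a high value.

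Hmgb2 is the clearest case. Its 414-base model Hmgb2-202, annotated with an open end, held 58.9% and 58.2% of TPM on 15.2% and 14.8% of counts, while the complete 2628-base Hmgb2-201 held 41.0% and 41.7% of TPM on 84.8% and 85.2% of counts. Counting complete coding models alone, Hmgb2 was at 111 and 115 TPM and ranked 10 among the members instead of 1. Rrm2 was then the highest member at 213 and 209 TPM, followed by Birc5 at 196 and Cdk1 at 175 ± 4.11 TPM.

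Cenpa was led by Cenpa-202, a 1031-base model of the class degraded by nonsense-mediated decay, with 62.7% and 64.3% of TPM. This model also led by counts, with 50.5% and 51.7%. The complete coding models of Cenpa gave 47.3 ± 1.88 TPM (SD, n = 2), rank 29. Tyms was led by Tyms-205, of 618 bases and the same class, with 28.5% and 30.4% of TPM, and its complete coding model stood at 7.27 and 8.22 TPM. By counts Tyms was led by Tyms-206, a 2723-base retained-intron model, with 35.0% and 32.1%. A leading model by TPM that is not protein coding was found in these 2 members, and in 8.06% of detected protein-coding genes.

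Cenpf split between Cenpf-203, a 3001-base model with an open end that held 49.3% and 49.4% of TPM, and the full 11130-base Cenpf-204 with 18.1% and 17.5%. By counts Cenpf-204 led with 55.2% and 54.1%. On complete coding models Cenpf was at 10.3 ± 0.0212 TPM, below Cenpe, so the ratio of this pair changed direction. E2f6 divided almost evenly between the coding E2f6-201, with 49.9% and 45.1%, and E2f6-204 of the decay class, with 40.8% and 46.1%, and the order of these models differed between the libraries.

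In Prc1 the split lay among complete coding models, with Prc1-210 at 30.3% and 29.4%, Prc1-206 at 26.5% and 26.8% and Prc1-202 at 23.8% and 20.8% of TPM. The leading model held 43.3% and 38.2% in Kif20a, 48.3% and 41.9% in Tpx2, 45.4% and 52.6% in Ect2, 29.6% and 31.0% in E2f7, and 59.2% and 56.5% in Tk1. In Tk1 most of the rest, 40.8% and 43.5%, was on retained-intron models.

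**Figure D4:**
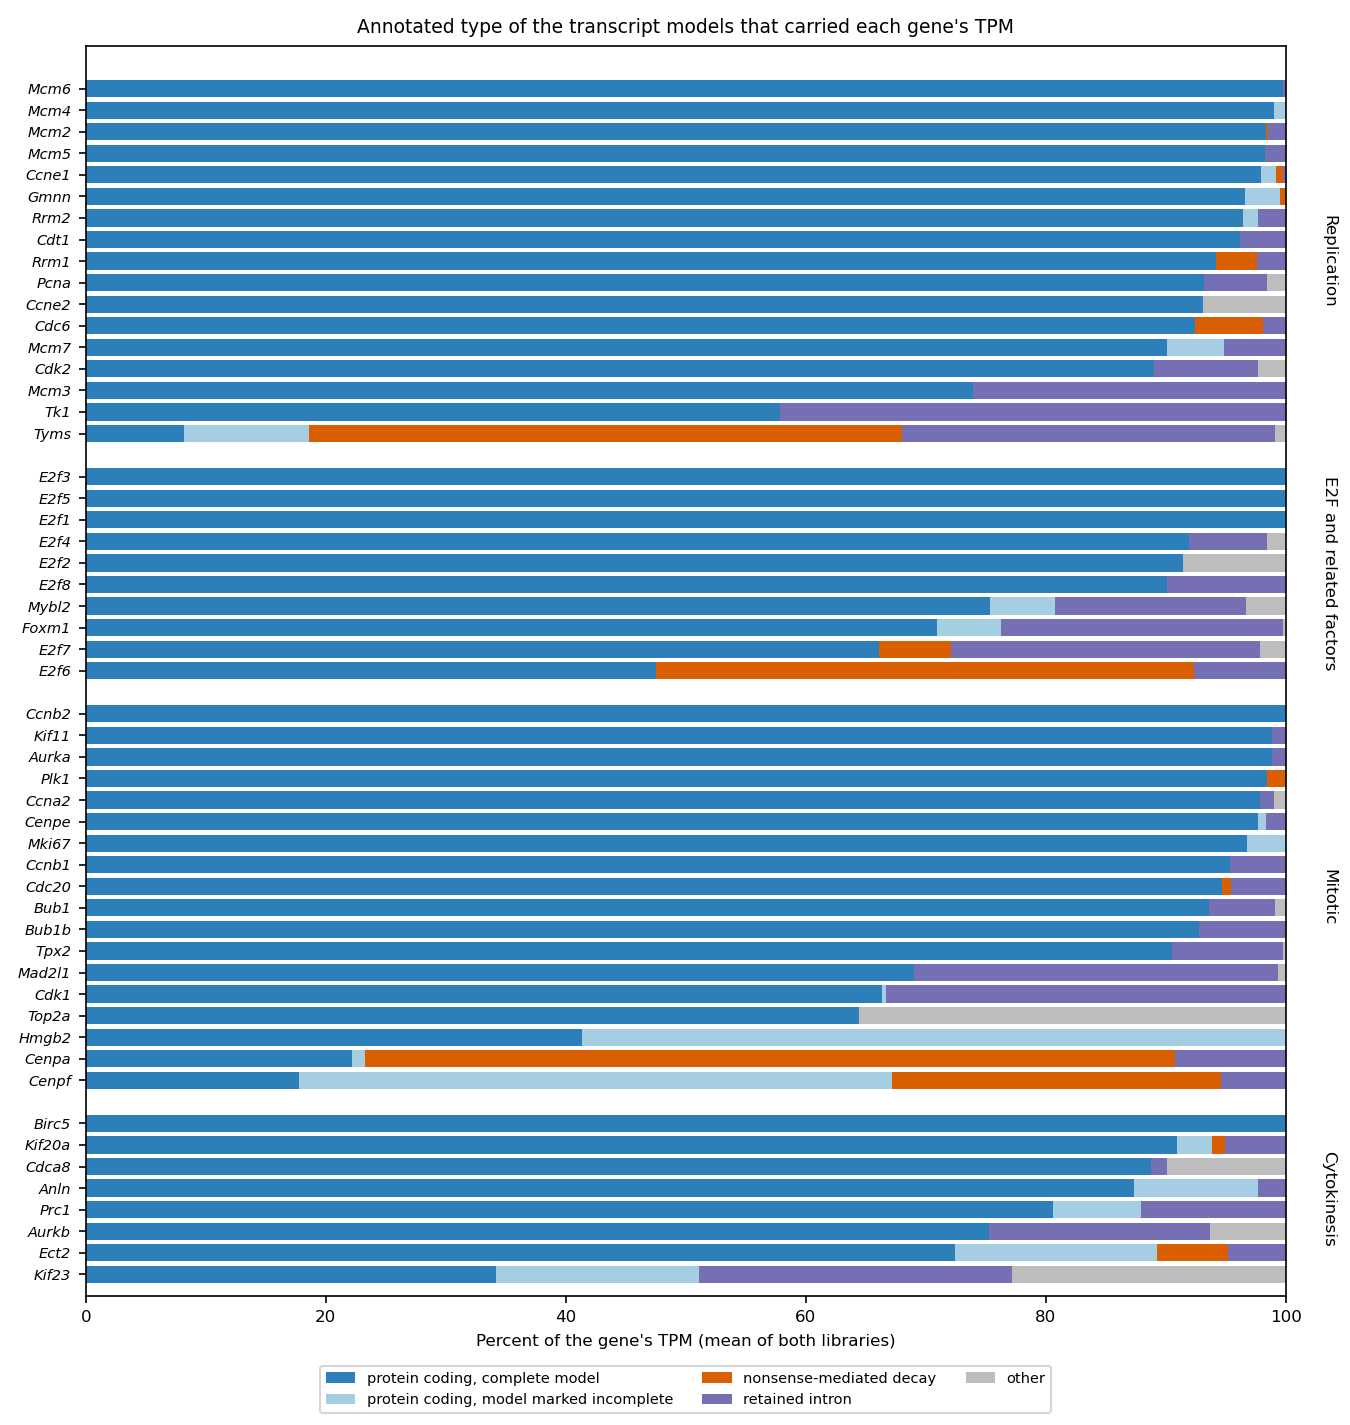
Percent of each gene's TPM (mean of both libraries) carried by transcript models of each annotated type, in 53 bars ordered within each class by the share of complete protein-coding models. Bars of Tyms, Cenpf, Cenpa, Kif23, Hmgb2 and E2f6 have under 50% in the dark blue of complete coding models.

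Kif23 (ENSMUSG00000032254.10, chr9:61915905-61946774) was the 1 member whose TPM differed by 1.5-fold or more between the M21 and M4 annotations in both libraries, as 5.57% of detected protein-coding genes did. It was at 65.7 and 75.8 TPM on M21 against 33.8 and 39.4 on M4, with its counts nearly equal at 2847 and 2656 in replicate 1. Its complete coding model Kif23-201 gave 22.1 and 26.4 TPM. Replicate 2 was the higher library for Kif23 on each of these measures.

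Hmgb2 was the 1 member whose counts differed by that much, as in 2.29% of detected protein-coding genes. It drew 8173 and 7622 counts on M21 and 12836 and 12014 on M4, where its TPM was 210 and 217. The deposited posterior SD of its count, a measure of how uncertainly reads were shared out, was at most 0.870% and was the largest among members.

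**Figure D5:**
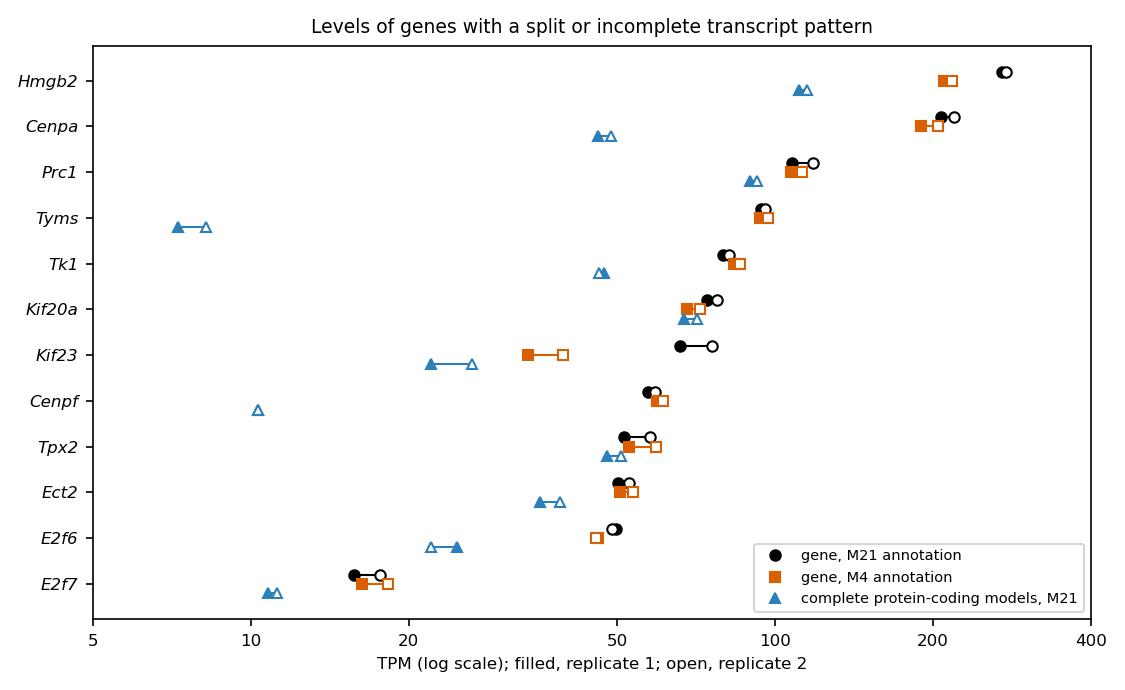
TPM (log axis) of the 12 members with a split or incomplete pattern, by the M21 gene value (circles), the M4 gene value (squares) and the complete protein-coding models of M21 (triangles), filled for replicate 1 and open for replicate 2. Circles and squares nearly coincide except for Kif23 and Hmgb2, and the triangles fall far to the left for Tyms, Cenpf, Cenpa and Kif23.

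The members lay on 16 chromosomes, with 7 on chromosome 2. On chromosome 11 Tk1 and Birc5 were 23.2 kb apart and Cdc6 and Top2a 69.0 kb apart, the 2 closest pairs. A gene detected in these hearts overlapped 11 members, 10 of them on the opposite strand. Kif20a shared 2327 bases with Cdc23 (80.1 and 78.4 TPM), an anaphase-promoting complex subunit, and Ccne2 shared 5622 bases with Ints8 (24.5 and 27.9 TPM). Mcm7 shared 64 bases with Cops6 (198 and 194 TPM). The largest overlap was that of Prc1, which shared 21810 bases with Rccd1 (4.81 and 6.91 TPM). Cdt1 shared 5540 bases on the same strand with Gm20388, which drew 0 and 270 counts and so was not counted as detected. Cdt1 itself drew 1575 and 1329 counts, and the part of Gm20388 in its ratio was not tested. Whether the counting used strand is not given in the sources used here, so reads of such overlaps cannot be separated.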

How the data were processed

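The deposited expected counts are reads per gene or transcript as estimated by the authors, with reads of equal match shared out, and the deposited TPM values are those abundances per effective length scaled to a fixed total over all rows, per the file headers and column sums. The deposited posterior SD of counts is in reads, per the file headers. All were made by the authors on mm10 with annotations M21 and M4. Neither aligner nor counter, nor whether strand was used, is given in the sources used here.

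M21 was the main annotation. Rows naming no gene (ERCC, phiX and numeric rows) took 3.58% and 3.63% of counts and stayed out of library sizes and tests. Library totals were 35520161 and 32577548 counts. Reads carry no molecular identifiers that were used here, and intervals cover counting error only. Rounded counts with a sum of at least 20 were compared with an exact conditional binomial test (SciPy 1.17.1) under TMM scaling (edgeR 4.0.16), since a single group allows no model of conditions, and 0.5 was added for ratios. Calls needed an adjusted p under 0.05 and an absolute log2 ratio of at least 1. The test was run on simulated counts that held counting error alone, as the test assumes. It called 100 of 100 genes changed 4-fold, and 6 of 17768 unchanged genes tested had an adjusted p under 0.05. Spread between hearts was not simulated, so the simulation cannot show how the test behaves under it. Alternatives used DESeq2 1.42.0 size factors, ERCC scaling, no count filter, M4, the posterior mean TPM, TPM without globin and mitochondrial genes, other pseudocounts, each library alone and coding models only.

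Every member is named with its level. Values in both libraries are given for the 4 highest and 2 lowest of each class, called members, members of the pairs with the largest and smallest ratios, members that differ 1.5-fold between annotations and those with a split transcript pattern. Of context lists only the highest, the lowest and called genes are named. The members, lists and pairs were chosen with earlier results of these data known, and the transcript measures beyond the 60% share and the window of 100 bases for CHR words were chosen after the data were seen.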

Additional observations from a re-analysis of the deposited data

How the results depend on the processing

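No paired analysis was possible because the design has a single group. The count of 0 called members and of 53 detected members was the same under each alternative tried, and the members that passed without a fold threshold numbered 6, against 8 with DESeq2 size factors, 7 with ERCC scaling, 5 without the count filter and 7 on M4. The E2F class median ratio of 0.0013 on the log2 scale became -0.0082 with ERCC scaling and -0.0052 on M4. Its sign thus depended on the setting, and no interval was computed for a class median. Scaling moved the median ratio of all genes by less than 0.1 in each case. Over nuclear genes without globins, a smaller total by construction, class medians were 107 (replication), 21.9 (E2F), 101 (mitotic) and 89.7 TPM (cytokinesis). On M4 the medians were 91.6 for replication and 18.7 for E2F. Added after the data were seen, protein-coding models alone gave 78.3, 16.8, 71.2 and 59.99 TPM, and complete coding models alone gave 78.0, 16.8, 71.2 and 58.8 TPM. The same settings turned the log2 ratio of Tyms to Tk1 to -1.40 and -2.52, and complete models turned that of Cenpf to Cenpe to -0.72, because fewer transcripts were counted. Each library alone gave medians of 86.3 to 89.0 (replication), 17.6 to 18.3 (E2F), 80.3 to 85.0 (mitotic) and 69.9 to 76.6 TPM (cytokinesis), 11 of 18 pairs with the gene written first higher, 11 split members and 1 member that differed between annotations. On M4, 8 of 18 pair ratios moved by more than their SD between libraries. On protein-coding models alone 11 of 18 moved so and 1 changed sign. On complete coding models 9 moved, 2 changed sign and 7 stayed within the SD. Complete models gave 1.23 for Cdk1 over Cdk2 and 0.72 for Aurka over Aurkb. They gave -1.43 for Mad2l1 over Cdc20 and 2.00 for Birc5 over Aurkb. With 2 libraries the spread between hearts is poorly known, and each member had at least 634 counts per library.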
